A study of Mus musculus with 2 samples.

Results

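Esrrb, Nr5a2 and Nr0b1 are 3 orphan nuclear receptor genes of the mouse pluripotency network, and the NANOG sites around them were followed through every deposited peak list. A site was a peak summit of the optimal mm10 set that lay in the gene body or within 150 kb of the transcription start site (TSS). By this rule the 3 genes, of 21489 protein-coding genes examined, had 8 of the 15891 optimal sites: 4 at Esrrb, 2 at Nr5a2 and 2 at Nr0b1.

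NANOG, a homeodomain transcription factor, was the antibody target of this ChIP-seq experiment (sequencing of DNA fragments pulled down with the protein). The cells were E14TG2a.4, male embryonic stem cells of mouse strain 129/Ola with a labelled age of 3.5 days. The labels give 1 group of 2 biological replicates with 1 technical replicate each, both from the same donor record, so no conditions could be compared, no test was made and every value here is a description. On mm10, each replicate and their pool had a relaxed list of 300000 ranked regions, peaks and background together, from which the irreproducible discovery rate (IDR) procedure of the authors left the optimal set and a conservative set of 9431 peaks. Read depth is unknown, and RNA was not measured, so the labelled cell type could not be checked against expressed markers.

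ESRRB is an orphan receptor of the estrogen-related family that binds DNA as a monomer at an extended half-site and sustains self-renewal of naive embryonic stem cells, where its gene is a known NANOG target. NR5A2, also called LRH-1, recognises nearly the same half-site and supports transcription of Pou5f1 in the epiblast. NR0B1, also called DAX1, lacks the usual zinc-finger DNA-binding domain and acts through other proteins, often as a repressor and including other nuclear receptors.

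The signal of an mm10 peak is the authors' own enrichment statistic, its scale is not stated, and it was used here only within 1 list. Rank 1 is the highest signal of a list, coordinates are 1-based, and distances are given relative to the direction of transcription. A replicate was taken to hold a site where 1 of its summits lay within 100 bp, and its top regions were its 15891 highest, as many as the optimal set holds.

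All 4 Esrrb sites lay inside the gene, in its 3′ part, and the strongest was among the highest NANOG peaks of the genome. Esrrb covers chromosome 12, 86361117 to 86521628, on the plus strand of mm10 (160512 bp), with a second listed TSS 60527 bp downstream of the first. Its sites lay 105.2, 110.0, 137.9 and 140.7 kb downstream of the first TSS, a stretch of 35.5 kb. Esrrb had the nearest protein-coding TSS for each of them. From the second TSS the same summits lay 44702, 49508, 77358 and 80204 bp downstream.

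The site 140.7 kb downstream (chromosome 12, 86501645 to 86502105) had an optimal signal of 292, rank 187, so that 1.18% of the optimal set was as high or higher. It had signal 208 and rank 198 in replicate 1, and signal 81.2 and rank 228 in replicate 2. Its place near the top of the list was thus nearly the same in both replicates, with summits 7 bp apart. The site 110.0 kb downstream (86471024 to 86471250) had an optimal signal of 134 and rank 1324. In replicate 1 it had signal 88.0 and rank 1762, and in replicate 2 signal 46.5 and rank 751. This site stood higher in the order of replicate 2 than in that of replicate 1.

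The other pair of Esrrb sites was weaker in replicate 2. The site 137.9 kb downstream (86498909 to 86499057) had an optimal signal of 74.2, rank 3550, with signal 61.0 and rank 3202 in replicate 1, against signal 9.37 and rank 13776 in replicate 2. The site 105.2 kb downstream (86466164 to 86466527) had an optimal signal of 29.3, rank 11164, below the optimal median of 40.2. Replicate 1 gave it signal 26.9 and rank 9524, and replicate 2 had no summit within 100 bp anywhere in its 300000 regions. The conservative set held the 3 stronger sites and lacked this one.

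**Figure D1:**
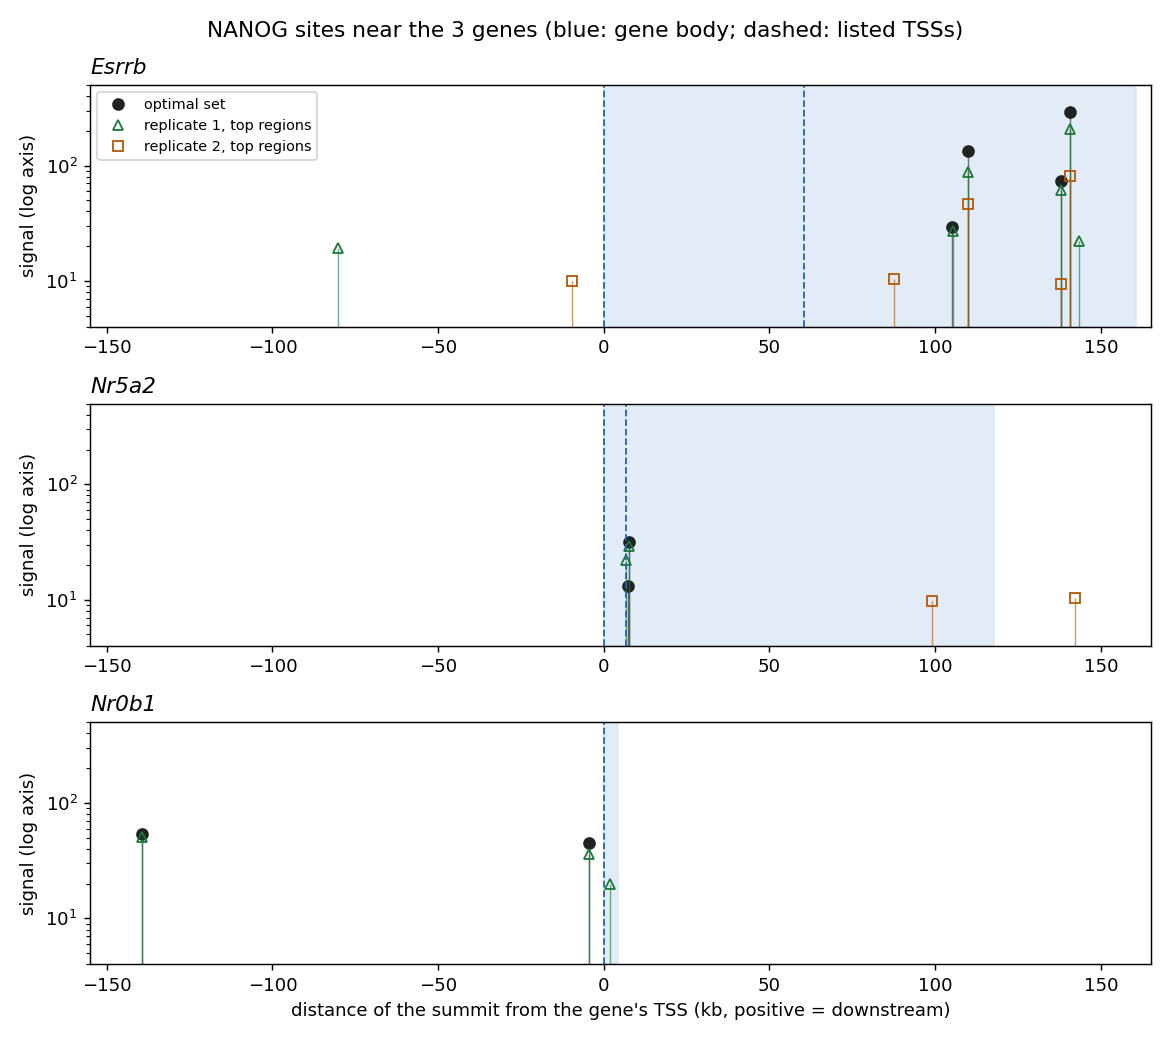
Signal (log axis) of each NANOG site against its distance in kb from the TSS of Esrrb, Nr5a2 and Nr0b1, with the optimal set as filled circles and the 15891 highest regions of replicate 1 and replicate 2 as open triangles and squares. Esrrb shows 3 places where all lists meet, at 110.0, 137.9 and 140.7 kb, while no place at Nr5a2 or Nr0b1 carries a replicate 2 symbol beside an optimal one.

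The same cluster appeared on mm9, where exon annotation was at hand and where each peak has an enrichment ratio and a q-value from the authors. The gene has the same length there (chromosome 12, 87702067 to 87862578), so positions were compared only by distance from its TSS. The series-level mm9 list had 5 Esrrb peaks, the replicate 1 list had 7 and the replicate 2 list had 3. Over the whole genome these lists hold 13341, 22082 and 6618 peaks, so replicate 2 has the shortest list. In the longest transcript, Esrrb-001 with 7 exons, the series-level peaks fell in intron 1 (105.2 kb), intron 2 (110.0 kb) and intron 3 (137.9, 140.8 and 143.4 kb). None overlapped the first or second listed TSS.

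The mm9 peak 140.8 kb downstream (87842229 to 87843569) had an enrichment of 34.06, rank 204 of 13341, with 68.3 in replicate 1 and 37.25 in replicate 2. The peak at 110.0 kb (87811598 to 87812547) had 16.34 in the series-level list, 31.73 in replicate 1 and 20.72 in replicate 2, and its midpoint lay 1005 bp downstream of the start of a shorter transcript, Esrrb-005. The peak at 137.9 kb had 10.57, with 20.17 in replicate 1 and 7.64 in replicate 2. Their order by enrichment was that of the mm10 signals. The median enrichment was 7.38 in the series-level list, 9.76 in replicate 1 and 8.6 in replicate 2.

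Both remaining mm9 peaks of Esrrb had no replicate 2 partner. The peak at 105.2 kb had an enrichment of 5.71 with a q-value of 0.0138 in the series-level list, and 8.78 in replicate 1. The weakest peak, 143.4 kb downstream (87845059 to 87845897), had 4.2 with a q-value of 0.0103, and 11.06 in replicate 1. Its midpoint lay 119 bp downstream of the start of the noncoding transcript Esrrb-004. It has no counterpart in the optimal mm10 set: at this distance the pool gave signal 22.6, rank 15716, replicate 1 gave signal 22.1, rank 11973, and the nearest replicate 2 summit was the strong one at 140.7 kb.

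The mm9 sequences around 3 of these peaks are printed because they hold the letters that ESRRB and NR5A2 recognise or the octamer of OCT4. Capitals mark AAGGTCA (the extended half-site), ATGCAAAT (the octamer), ACAATG and ACAAAG (SOX sites) and TAATGG (a homeodomain core bound by NANOG), on either strand. Each run is 300 bases centred on the midpoint of the peak. A midpoint need not be the summit. By distance from the TSS, the pooled mm10 summit lay 0.101 kb from the midpoint of the Esrrb peak at 140.8 kb. The same gap was 0.104 kb at the Nr0b1 peak 4.2 kb upstream. Motif distances below are from midpoints.
Esrrb 140.8 kb downstream, mm9 chr12:87842749-87843048, plus strand: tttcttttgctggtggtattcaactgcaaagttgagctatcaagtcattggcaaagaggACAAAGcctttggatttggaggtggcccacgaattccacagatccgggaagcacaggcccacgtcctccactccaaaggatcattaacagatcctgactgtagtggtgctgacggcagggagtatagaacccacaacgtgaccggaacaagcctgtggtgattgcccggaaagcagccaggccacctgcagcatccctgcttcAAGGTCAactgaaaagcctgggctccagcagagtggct
Esrrb 143.4 kb downstream, mm9 chr12:87845328-87845627, plus strand: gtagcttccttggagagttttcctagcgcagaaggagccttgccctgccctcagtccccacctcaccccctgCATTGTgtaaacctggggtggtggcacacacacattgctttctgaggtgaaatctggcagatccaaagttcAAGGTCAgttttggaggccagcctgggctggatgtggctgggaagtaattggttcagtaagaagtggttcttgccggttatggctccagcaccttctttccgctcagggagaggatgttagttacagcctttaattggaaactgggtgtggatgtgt
Esrrb 110.0 kb downstream, mm9 chr12:87811922-87812221, plus strand: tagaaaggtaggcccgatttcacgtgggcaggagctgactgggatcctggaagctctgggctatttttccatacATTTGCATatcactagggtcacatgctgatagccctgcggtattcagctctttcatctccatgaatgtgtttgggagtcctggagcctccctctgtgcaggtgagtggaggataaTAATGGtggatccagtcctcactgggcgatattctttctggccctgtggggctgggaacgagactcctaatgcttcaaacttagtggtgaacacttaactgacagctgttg

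The peak at 140.8 kb held the longer form TCAAGGTCA at both flanks, centred 114 bp downstream of its midpoint on the plus strand and 228 bp upstream on the minus strand, the second outside the printed run. The peak at 143.4 kb held TCAAGGTCA 5 bp from its midpoint, and the peak at 110.0 kb held the octamer 72 bp upstream and TAATGG 42 bp downstream of its midpoint. AAGGTCA is contained in TCAAGGTCA and itself contains the plain half-site AGGTCA. Within 100 bp of the midpoint, 1 of 5 Esrrb peaks held AAGGTCA, against 12.9% of all 13341 series-level peaks, and 1 of 5 held TCAAGGTCA, against 3.04%. Over the whole regions the counts were 3 of 5 and 2 of 5, against 29.3% and 6.65%. These shares were not adjusted for width, and the peak at 140.8 kb spans 1341 bp, against a series-level median of 853 bp. ATGCAAAT within 100 bp was found in 1 of 5 Esrrb peaks, against 4.16%, and TAATGG in 2 of 5, against 11.8%. A match describes these letters and is not evidence of a bound site.

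The Esrrb promoters themselves carried little. Within 1 kb of the first TSS, replicate 2 had a region 459 bp downstream with signal 7.996, rank 28374, and replicate 1 had none. Within 1 kb of the second TSS, replicate 1 had its highest region 87 bp upstream with signal 7.32, rank 98056, and replicate 2 had none. The region 4.0 kb downstream of the first TSS had signal 17.3, rank 22513, in the pool and signal 11.1, rank 29905, in replicate 1.

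Regions in the top 15891 of only 1 replicate completed the Esrrb window. Replicate 1 had 6 top summits and replicate 2 had 5, against a median of 2 in each for autosomal genes. The replicates shared the 3 at 110.0, 137.9 and 140.7 kb. The others of replicate 1 were the optimal site at 105.2 kb, the one at 143.4 kb and one 80.1 kb upstream, inside Gpatch2l, with signal 19.4 and rank 13892. The others of replicate 2 lay 9.6 kb upstream (signal 9.91, rank 11206) and 87.7 kb downstream (signal 10.4, rank 9585). On mm9, replicate 1 alone also had peaks 80.1 kb upstream (enrichment 10.08, q-value 0.1378) and 117.9 kb downstream (5.85, q-value 0.3148).

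The Esrrb cluster stood apart from its surroundings. The nearest optimal peaks outside the window lay 607.7 kb upstream (signal 51.6, nearest TSS Flvcr2) and 410.0 kb downstream of the Esrrb TSS (signal 34.5, nearest TSS Lrrc74a). Esrrb had 4 optimal sites, and 24.1% of all genes examined had at least 4. It had 3 conservative sites, and 19.2% of genes had at least 3. Its highest signal was reached by 2.57% of genes (552). Among optimal summits, 581 (3.66%) begin a stretch of 35.5 kb that holds at least 4 summits. Both the length and the number were taken from Esrrb itself, and later summits of a stretch need not be counted. The share therefore does not measure how unusual the cluster is.

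Both Nr5a2 sites lay just inside the gene, beside its second listed TSS, and both were weak and rested on replicate 1. Nr5a2 covers chromosome 1, 136842562 to 136960448, on the minus strand of mm10 (117887 bp), and the second TSS lies 6818 bp downstream of the first. The higher site (136952707 to 136953070) lay 7.559 kb downstream of the first TSS and 741 bp downstream of the second. Its optimal signal was 31.9, rank 10207, and it had signal 29.1 and rank 8696 in replicate 1. The lower site (136952933 to 136953296) lay 7.333 kb downstream of the first TSS and 515 bp downstream of the second. Its optimal signal was 13.1, rank 15457 of 15891, with signal 10.6 and rank 32940 in replicate 1. Replicate 2 had no summit within 100 bp of either site, the conservative set held neither, and the 2 regions overlap, so they count as 1 stretch of sequence.

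Another summit nearby was stronger than the lower of these sites yet is not in the optimal set. It lay 6.575 kb downstream of the first TSS, 243 bp upstream of the second, and had signal 30.0 and rank 11233 in the pool. Replicate 1 had a summit 210 bp upstream of the second TSS with signal 22.2 and rank 11947. Replicate 2 had one 356 bp upstream with signal 7.73 and rank 33300, which is 113 bp from the pooled summit and so missed the 100 bp limit. Around the first TSS none of the relaxed lists had a region within 1 kb.

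On mm9, where the gene covers chromosome 1, 138740161 to 138857004, the series-level list had 2 Nr5a2 peaks side by side, replicate 1 had 1 and replicate 2 had none. The peaks lay in intron 1 of the longer annotated transcript, which has 9 exons. The first (138849067 to 138850000), 674 bp downstream of the start of the shorter transcript, had an enrichment of 7.38 with a q-value of 0.0029. The second (138850034 to 138850854), 237 bp upstream of that start, had 4.2 with a q-value of 0.0095. The replicate 1 list held a single peak of 1834 bp over both, with an enrichment of 13.99 and a q-value of 0.0031. So the pair of mm9 peaks flanked the start of the shorter transcript.

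The sequence of the higher mm9 peak and that of the second promoter are printed because the mm9 peaks flank this start. The promoter run comes from RefSeq on GRCm38.p6 and spans 250 bases before to 50 after the start. Capitals mark the same letters as above.
Nr5a2 7.5 kb downstream, mm9 chr1:138849383-138849682, plus strand: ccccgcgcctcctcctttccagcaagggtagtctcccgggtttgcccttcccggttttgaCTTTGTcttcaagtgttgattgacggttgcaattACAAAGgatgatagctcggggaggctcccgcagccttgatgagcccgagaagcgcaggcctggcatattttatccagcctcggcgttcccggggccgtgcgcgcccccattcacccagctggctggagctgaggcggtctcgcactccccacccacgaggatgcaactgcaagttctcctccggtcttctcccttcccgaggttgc
Nr5a2 second promoter, GRCm38.p6 chr1:136953581-136953880, minus strand: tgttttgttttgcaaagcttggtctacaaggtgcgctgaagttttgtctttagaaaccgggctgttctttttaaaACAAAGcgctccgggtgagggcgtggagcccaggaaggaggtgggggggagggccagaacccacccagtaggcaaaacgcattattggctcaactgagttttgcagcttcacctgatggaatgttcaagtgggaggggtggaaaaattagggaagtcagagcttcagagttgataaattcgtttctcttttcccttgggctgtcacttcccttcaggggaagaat

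Neither Nr5a2 peak held AAGGTCA, within 100 bp of its midpoint or over its whole region, against 12.9% and 29.3% of all series-level peaks. Both held ACAAAG within 100 bp, against 37.2%, and neither held it within 50 bp, against 22.4%. In the second promoter ACAAAG began at base 76, and AAGGTCA was not among its letters. By its flanking letters this ACAAAG is the same occurrence as a match in the second mm9 peak, so it is not a further one. Of 32544 promoters of this length, 18.7% held ACAAAG and 4.71% held AAGGTCA.

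Replicate 2 had its own top summits elsewhere around Nr5a2. One lay 142.2 kb downstream of the first TSS, past the end of the gene, with signal 10.3 and rank 9847, and the other lay 99.2 kb downstream, inside the gene, with signal 9.74 and rank 11907. At the first of these places replicate 1 had signal 6.69 and rank 130726. Each replicate had 2 top summits in the Nr5a2 window, equal to the autosomal median of 2, and they shared none of them.

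A stronger NANOG peak lay on the downstream side of Nr5a2 beyond the limit of 150 kb. This nearest optimal peak downstream (136727988 to 136728210) lay 232.3 kb from the Nr5a2 TSS, had signal 108 and rank 1963, and had the TSS of Zfp281, a zinc-finger repressor gene, as its nearest. The nearest upstream lay 213.8 kb away with signal 31.0. Nr5a2 had 2 optimal sites, and 56.9% of genes examined had at least 2. Its highest signal, 31.9, was reached by 66.8% of genes.

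Nr0b1 had a site 4.347 kb upstream with a summit in the relaxed lists of both replicates, and a distant one with a summit in replicate 1 only. Nr0b1 is a short gene of the X chromosome, 86191775 to 86195947 on the plus strand of mm10 (4173 bp). The near site (86187246 to 86187609), 4.347 kb upstream of the TSS, had an optimal signal of 45.2, rank 6862, and was in the conservative set at rank 6120. It had signal 36.1 and rank 6673 in replicate 1, and signal 8.90 and rank 17269 in replicate 2, just outside the top 15891 of that replicate. The far site (86052134 to 86052497), 139.459 kb upstream, had an optimal signal of 54.2, rank 5499. Replicate 1 gave it signal 50.6 and rank 4295, replicate 2 had no summit within 100 bp, and the conservative set lacked it. Its nearest protein-coding TSS was that of Samt3, 8117 bp away, so the higher of the 2 signals belongs to the site that another gene is nearest to.

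**Figure D2:**
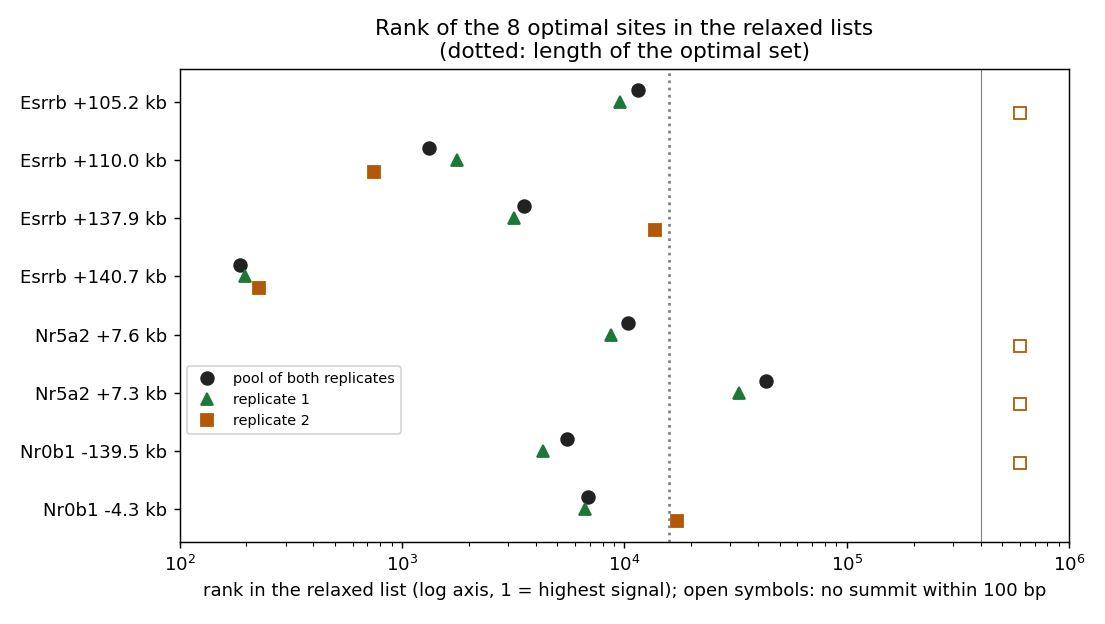
Rank (log axis) of the 8 optimal sites in the relaxed lists of the pool (circles), replicate 1 (triangles) and replicate 2 (squares), with open squares at the right for sites with no replicate 2 summit within 100 bp and a dotted line at rank 15891. The Esrrb sites at 110.0 and 140.7 kb rank high in every list, and 4 of the 8 sites have no replicate 2 summit.

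The Nr0b1 promoter and gene body held weaker regions. At the TSS the pool had a summit 135 bp upstream with signal 12.6, rank 48628. Replicate 1 had one 133 bp upstream with signal 14.9, rank 19066, and replicate 2 one 312 bp downstream with signal 4.70, rank 241596. Replicate 1 also had a top summit 1.805 kb downstream, signal 19.7 and rank 13689, which falls in the only intron of the gene by its mm9 structure. Replicate 1 had 3 top summits in the window and replicate 2 had none, against medians of 1 and 0 for X-linked genes.

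The series-level mm9 list had 3 Nr0b1 peaks, replicate 1 had 4 and replicate 2 had none. The replicate lists differ in length, with 22082 peaks in replicate 1 and 6618 in replicate 2. The peak 139.5 kb upstream (83297233 to 83298041) had an enrichment of 9.73, and 17.89 in replicate 1. The peak 4.2 kb upstream (83432431 to 83433289) had 5.87, and 11.71 in replicate 1. The remaining one, 10.5 kb upstream (83426162 to 83427127), had 6.71 with a q-value of 0.0027, and 13.34 in replicate 1. The fourth replicate 1 peak was the intronic one, with an enrichment of 6.83 and a q-value of 0.4277.

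The mm9 peak 10.5 kb upstream had no counterpart on mm10. By distance from the TSS, the nearest region was 5.788 kb away in the replicate 1 list, 6.127 kb in that of replicate 2 and 6.112 kb in the pool. Of the 32-base stretches within 100 bp of the midpoint of this peak, 12.9% occur once in the mm9 genome, and the median stretch has 101 copies. The rest of the peak was not examined for copies. Within 100 bp of the midpoints of the other 9 member peaks, the share occurring once was 100% except for 92.9% in the second Nr5a2 peak. By the same measure 7.86% of all series-level peaks had a share under 50%. Whether repeated sequence accounts for the difference between builds was not tested.

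All 3 Nr0b1 peaks are printed, since they differ in which of the marked letters they hold. Capitals mark the same letters as above.
Nr0b1 4.2 kb upstream, mm9 chrX:83432710-83433009, plus strand: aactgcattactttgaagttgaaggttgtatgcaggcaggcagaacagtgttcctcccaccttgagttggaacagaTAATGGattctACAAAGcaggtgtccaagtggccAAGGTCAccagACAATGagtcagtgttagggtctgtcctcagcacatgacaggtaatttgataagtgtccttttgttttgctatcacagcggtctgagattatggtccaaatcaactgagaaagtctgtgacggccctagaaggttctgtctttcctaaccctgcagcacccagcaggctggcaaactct
Nr0b1 10.5 kb upstream, mm9 chrX:83426494-83426793, plus strand: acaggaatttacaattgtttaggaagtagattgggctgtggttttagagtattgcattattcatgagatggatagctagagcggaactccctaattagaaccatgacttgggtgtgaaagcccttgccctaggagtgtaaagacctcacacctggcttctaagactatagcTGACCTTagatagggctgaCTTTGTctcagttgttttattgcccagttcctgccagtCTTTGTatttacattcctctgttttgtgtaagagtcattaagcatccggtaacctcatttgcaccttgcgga
Nr0b1 139.5 kb upstream, mm9 chrX:83297487-83297786, plus strand: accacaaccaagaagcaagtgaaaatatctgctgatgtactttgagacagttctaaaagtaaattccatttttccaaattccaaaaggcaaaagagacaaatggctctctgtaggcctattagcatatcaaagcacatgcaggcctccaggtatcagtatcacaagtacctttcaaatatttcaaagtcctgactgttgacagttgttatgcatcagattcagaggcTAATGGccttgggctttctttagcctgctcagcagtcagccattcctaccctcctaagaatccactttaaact

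The peak 4.2 kb upstream held a run of marked letters within 100 bp of its midpoint: TAATGG 71 bp, ACAAAG 60 bp, AAGGTCA 37 bp and ACAATG 26 bp upstream of it. AAGGTCA occurred there 2 more times, 215 and 237 bp upstream of the midpoint and outside the printed run. The peak 10.5 kb upstream held AAGGTCA on the minus strand 24 bp from its midpoint. The peak 139.5 kb upstream held TAATGG 80 bp from its midpoint and no AAGGTCA. So 2 of 3 Nr0b1 peaks held AAGGTCA within 100 bp, against 12.9% of all series-level peaks, and none held TCAAGGTCA, against 3.04%. One of those with AAGGTCA is the peak 10.5 kb upstream, which had no mm10 counterpart. Its 32-base stretches near the midpoint had a median of 101 copies in the mm9 genome. The Nr0b1 peaks with TAATGG also numbered 2 of 3, against 11.8%, and within 50 bp 0 of 3, against 6.90%.

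With 2 optimal sites Nr0b1 was level with Nr5a2 and below Esrrb, although the Nr5a2 regions overlap and count as 1 if overlapping regions are counted once. Of all genes, 78.0% had at least 1 optimal site, 63.3% had at least 1 conservative site, as Nr0b1 did with 1, and 47.3% had a highest signal of at least 54.2. Nr0b1 is X-linked and the line is male, so it has a single X. Of 944 X-linked genes 51.4% had an optimal site, against 80.1% of 20327 autosomal genes. The relaxed lists held 11 regions in the Nr0b1 window in replicate 1 and 5 in replicate 2, against a median of 8 in each for X-linked genes. Esrrb had 70 and 65 and Nr5a2 had 62 and 53, against autosomal medians of 54 and 51. The part of the chromosome in the lower Nr0b1 values was not tested.

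The nearest optimal peaks outside the Nr0b1 window lay 175.1 kb upstream (signal 54.5, nearest TSS Samt3) and 537.2 kb downstream (signal 42.5, nearest TSS Mageb4). The first of these was as high as the far site itself.

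The 3 genes differed in which replicates held their sites. All 8 sites had a replicate 1 summit within 100 bp, 4 (50%) had no replicate 2 summit, and 3 (37.5%), all at Esrrb, were among the top 15891 of both replicates. Over all optimal peaks 96.9% had a replicate 1 summit, 25.02% had no replicate 2 summit and 46.2% were among the top of both. The conservative set held 4 of the 8 sites (50%), against 55.6% of all optimal peaks. The 4 sites that lack a replicate 2 summit had signals of 13.1 to 54.2. Of the 9959 optimal peaks in this range, 34.9% had no replicate 2 summit. Among the top of both replicates were 23.6% of them, and 35.9% were in the conservative set. Of the 8 sites, 5 fell in the range, 1 of them in the conservative set and none among the top of both. The range was chosen by the missing summits, so the counts among these 5 cannot be compared with the shares.

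**Figure D3:**
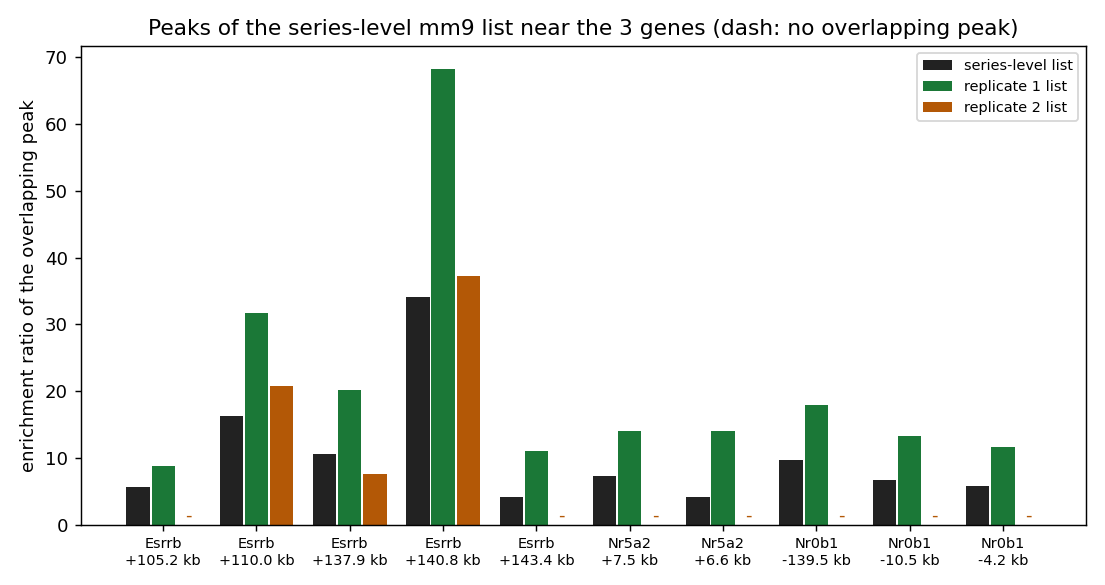
Enrichment ratio of the 10 series-level mm9 peaks near Esrrb, Nr5a2 and Nr0b1 (black) and of the overlapping peak in the replicate 1 list (green) and replicate 2 list (orange), with a dash where a list has none. Orange bars stand at 3 Esrrb peaks, 110.0, 137.9 and 140.8 kb downstream, and at no peak of Nr5a2 or Nr0b1. The whole replicate 2 list has 6618 peaks, against 22082 in replicate 1. Both Nr5a2 positions share 1 replicate 1 peak.

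The 3 members held separate places among 49 nuclear receptor genes ordered by highest signal. Esrrb was second of the 47 receptors with a site, Nr0b1 was at place 31 and Nr5a2 at place 41. At least 1 site was found at 95.9% of the receptors, against 78.0% of all genes. The list had a median of 2 sites and a median highest signal of 64.1, against 2 sites for all genes and 66.4 over all genes with a site. At least 2 sites were found at 34 receptors (69.4%), against 56.9% of all genes, and at least 4 at 14 (28.6%), against 24.1%. A conservative site was found at 35 (71.4%), against 63.3%. A count of this kind assigns a peak to every gene in reach, so neighbouring genes share peaks.

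**Figure D4:**
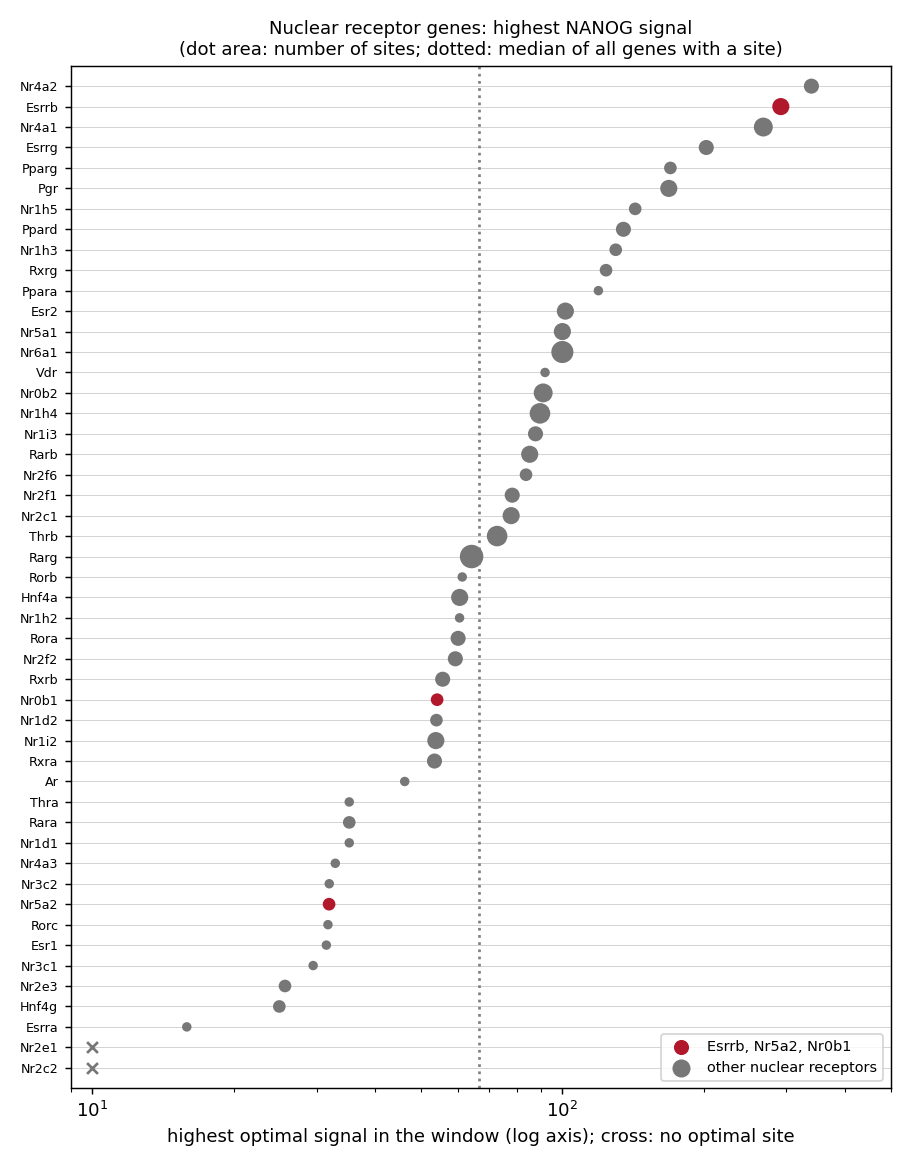
Highest optimal signal (log axis) in the window of each of 49 nuclear receptor genes, with dot area for the number of sites, red dots for Esrrb, Nr5a2 and Nr0b1, grey dots for the others, crosses for the 2 without a site and a dotted line at the median of all genes with a site (66.4). Esrrb (292) lies second from the top, and Nr0b1 (54.2) and Nr5a2 (31.9) lie left of the line.

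The subfamily relatives of the members had sites of their own. Esrrg, an estrogen-related receptor of oxidative metabolism, had a highest signal of 203 at 4.2 kb upstream of its TSS, while Esrra, its relative with a like role, had 1 site of signal 15.9 at 49.2 kb upstream, nearest to Plcb3. Nr5a1, the steroidogenic factor closest to Nr5a2, had 4 sites and a highest signal of 100.1 at 103.1 kb upstream. Nr0b2, the corepressor most like Nr0b1, had 5 sites and a highest signal of 91.1 at 107.6 kb downstream, nearest to Pigv. So Nr5a2 and Nr0b1 had lower highest signals in their windows than their nearest relatives, and Esrrb had a higher one than its own. These peaks need not belong to the genes compared. That of Nr0b1 is the far site, nearest to Samt3, and that of Nr5a1 is also the highest of Nr6a1. Nr0b1 is X-linked and Nr0b2 is not.

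The receptor above Esrrb was Nr4a2, an immediate early orphan receptor, with signal 339 at 132.6 kb upstream, nearest to Gpd2. Next below were Nr4a1, of the same subfamily, with signal 268 nearest to Acvr1b, Esrrg, and Pparg, the adipocyte regulator, with 170.0 nearest to Timp4. Of these leading sites those of Esrrb and Esrrg had the receptor itself as nearest gene. By highest signal in each replicate, the receptors nearest to Esrrb (208 in replicate 1 and 81.2 in replicate 2) were Nr4a1 (202 and 66.6, Euclidean distance 0.29 on the log2 scale over the 2 samples) and Nr4a2 (240.4 and 95.8, distance 0.32). Nearest to Nr5a2 (29.1 and 10.3, at different places in the 2 replicates) were the retinoic acid receptor gene Rara (28.02 and 11.3, distance 0.15) and the thyroid hormone receptor gene Thra (28.02 and 11.6, distance 0.18), which share their replicate 1 peak. Nr1d1, a neighbour of Thra, had the same highest signals as Thra and so the same distance. Nearest to Nr0b1 (50.6 at the far site in replicate 1 and 8.90 at the near site in replicate 2) were Nr1d2, a circadian repressor gene (42.4 and 11.0, distance 0.39), and Thrb (59.1 and 11.2, distance 0.40).

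Of 16 nuclear receptor coregulator genes 15 (93.8%) had an optimal site, against 78.0% of all genes, and the same number a conservative one, against 63.3%. The list had a median of 4 sites and a median highest signal of 85.9. The highest were Ncoa6 (signal 406, 95.5 kb upstream, nearest to Gss), Ncoa3, a coactivator that works with ESRRB in embryonic stem cells (261, 49.3 kb upstream, nearest to Zmynd8), and Crebbp, a histone acetyltransferase gene (119, 79.5 kb upstream). Ncoa3 had 11 sites in its window, the most of this list.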

How the data were processed

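NANOG ChIP-seq peak lists of 2 replicates were used. Per the notes deposited with the files, the lists derive from alignments and control alignments. Aligner, peak caller and IDR threshold are not given in the sources used here. On mm10 the authors deposited, by the field order of the peak type, a signal per peak, the -log10 of its q-value and the summit offset. On mm9 the authors deposited a q-value, read as untransformed from its range, the -log10 p-value and an enrichment ratio with no stated reference. How the series-level mm9 list combines the replicates is not stated.

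From these lists, summits were assigned with Python 3.11.15, NumPy 2.4.6, pandas 2.3.3 and pysam 0.24.0, and plotted with matplotlib 3.10.9. Of 21887 protein-coding genes on assembled chromosomes in a GRCm38 table, 21489 had a strand, 17492 from RefSeq promoters and 3997 from the mm9 annotation. No low-value filter was applied. mm10 exons and genome sequence were not used, so introns, motifs and peak sequences are on mm9. Coordinates were never converted; builds were compared only by distance from the TSS of the gene. Motifs were exact letters on both strands, within 100 bp of a peak midpoint. Counting and motif search were tested on simulated data. The members, gene lists and motifs were chosen with earlier results of these data known. Genes named are the members, their subfamily relatives, the nearest TSS of sites named, the 5 highest receptors, the 3 highest coregulators and network genes, and for each member the 2 receptors nearest by highest signal. Alternatives were other windows (50, 100 and 250 kb), the conservative set, a signal minimum, nearest genes only, each replicate alone, other matching limits (50 and 250 bp, shared bases, the top 50000 or all regions), a q-value maximum of 0.01 and other motif settings.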

Additional observations from a re-analysis of the deposited data

How the results depend on the processing

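Of the planned recomputed values, 57 were labelled the same as the main value and 25 moved. A count was labelled the same within 1.5-fold of its main value. The label compares numbers of sites and not their places. Without replicate 1 Nr5a2 also had 2 sites, but these lay 142.2 and 99.2 kb downstream and neither is in the optimal set. The label moved does not always mean a large change: it includes the Nr0b1 highest signal of 54.5 within 250 kb, against 54.2. The Esrrb sites numbered 5 to 6 with either replicate left out, and each of these counts includes places outside the optimal set. On mm9 Esrrb had 3 peaks at a q-value of at most 0.01, and 3 to 7 with either replicate left out. Nr5a2 had 0 sites in the conservative set and 0 at or above the median optimal signal, 1 with overlapping regions counted once, and 5 within 250 kb, where its highest signal was 108 and its mm9 peaks numbered 4. Its mm9 peaks numbered 0 to 1 with either replicate left out. Nr0b1 had 1 site within 50 kb, 1 within 100 kb, 1 in the conservative set and 1 by nearest TSS, and 0 to 3 with either replicate left out. Its highest signal was 45.2 within 50 kb, by nearest TSS and in the conservative set, and 54.5 within 250 kb. With the top 50000 regions or the whole lists, 1 Nr0b1 site was found in both replicates. Its mm9 peaks numbered 0 to 4 with either replicate left out. Within 50 kb, 48.4% of genes had a site. Over whole regions 3 Esrrb peaks held AAGGTCA, and 0 Nr0b1 peaks held TCAAGGTCA. Within 50 bp of the midpoint, a setting chosen after seeing the data, TAATGG was in 1 Esrrb peak and 0 Nr0b1 peaks, the octamer in 0 Esrrb peaks and ACAAAG in 0 Nr5a2 peaks. A highest conservative signal could not be given for Nr5a2, which has no such site. The values of Nr5a2 and Nr0b1 thus rest mostly on replicate 1. No paired analysis was possible because there is 1 group and no contrast. Read depth is unknown, so a region missing from replicate 2 is not shown to be absent there, and 2 replicates give no error for a combined signal.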

Other observations

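The 18 genes of the naive pluripotency network listed beside the receptors all had an optimal site and a conservative site, against 78.0% and 63.3% of all genes, with a median of 6.5 sites and a median highest signal of 148. The highest were Pou5f1, the gene of OCT4 (signal 314, 0.93 kb upstream of its TSS), Klf2, a zinc-finger factor gene (312, 15.4 kb downstream), and Prdm14 (307, 42.1 kb downstream). At least 4 sites were found at 17 of the 18 (94.4%), against 24.1% of all genes. The list holds well-studied NANOG targets and was drawn up with earlier results of these data known, so its values are a description.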
